A study of Mus musculus with 12 samples.

Results

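This section describes 30 genes that stood higher in mouse macrophages given PgLPS than in control cells, and higher still when the cells also received CS-PA/CNP. They were picked by their measured levels out of 21899 genes in the table. CPM here is the read count scaled to the library's total count, and a group's level is the mean of its 3 libraries. A gene was kept if its mean was at least 2 CPM with both agents, at least 1.5 times control with PgLPS, and at least 1.4 times PgLPS with both. In all, 33 genes met these conditions. Of 13 antioxidant and related genes set aside by name, 3 were among them (Hmox1, Prdx1 and Acss2), which left 30. The levels in control, with PgLPS and with both agents therefore chose the genes and are given as a description. The libraries with CS-PA/CNP alone had no part in the choice.

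The cells of every group were macrophages grown from wild-type (wt) mouse marrow. There were 12 libraries in 4 groups of 3: a control group with no agent, a CS-PA/CNP group, a PgLPS group and a group with both agents. Neither abbreviation is expanded in the labels, and neither dose, time, animal age nor pooling of marrow is stated.

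Macrophages answer bacterial products with receptor signalling that raises cytokines, interferon-stimulated genes and the enzymes of inflammatory metabolism. The same response also raises restraints on itself, such as interleukin-10, and protective genes of the antioxidant and heat shock programmes. The 30 genes are drawn from several such groups. They include signalling ligands and surface receptors, metabolic enzymes and transporters, stress and cell cycle genes, matrix proteins, and signalling adaptors.

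Library totals were 14992707 to 20082900 reads, and between 29 and 30 of the genes had reads in each library. Macrophage markers summed to 23210 to 27120 CPM in every library, most of it from Lyz2 (group means of 15180 to 19960). Single markers could differ more. Cd14 had means of 342 CPM in control, 295 with CS-PA/CNP, 1752 with PgLPS and 838 with both, whereas Csf1r had 2358, 2613, 2697 and 2789. In pairs of libraries from 1 group the chi-square per gene was 2.78 to 17.9, so no 2 of them agreed within sampling noise. The pairs with PgLPS library 2 (10.1 and 17.9) and with library 2 of both agents (12.5 and 14.1) had the largest values of their groups. Col1a1, a collagen gene, stood at 19.1 CPM in PgLPS library 1 and at 3.16 or less in the 11 others. Without PgLPS library 1 the conditions dropped Trim6, Il10 and Pf4, and without PgLPS library 2 they dropped Cgref1, Lancl3, Rasgrf1, Blvrb and Xcr1. Without library 2 of both agents they dropped Pf4. In these bulk libraries, fewer cells of a type and less RNA per cell cannot be told apart.

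The promoters of 3 genes are shown first because each held the motif of the stress or interferon programme to which its gene belongs. They are RefSeq sequences on GRCm38.p6, from 250 bases before the start to 50 after, written 5′ to 3′ on the gene's strand. The first and second belong to the inducible heat shock protein 70 genes, which lie near each other on chromosome 17. Capitals mark the heat shock element core GAANNTTC. The Hspa1a window is chr17:34972107-34972406 on the minus strand, and the Hspa1b window is chr17:34959189-34959488 on the minus strand. The third is Ifit3b, chr19:34607707-34608006 on the plus strand, where capitals mark 3 matches to the interferon-stimulated response element core GAAANNGAA, all on the opposite strand, and 1 match to the AP-1 motif TGANTCA.
Hspa1a: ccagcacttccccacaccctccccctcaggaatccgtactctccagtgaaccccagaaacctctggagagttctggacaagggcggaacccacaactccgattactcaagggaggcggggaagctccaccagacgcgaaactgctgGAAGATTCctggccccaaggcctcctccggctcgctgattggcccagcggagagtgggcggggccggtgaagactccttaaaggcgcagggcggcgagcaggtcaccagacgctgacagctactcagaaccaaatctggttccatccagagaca
Hspa1b: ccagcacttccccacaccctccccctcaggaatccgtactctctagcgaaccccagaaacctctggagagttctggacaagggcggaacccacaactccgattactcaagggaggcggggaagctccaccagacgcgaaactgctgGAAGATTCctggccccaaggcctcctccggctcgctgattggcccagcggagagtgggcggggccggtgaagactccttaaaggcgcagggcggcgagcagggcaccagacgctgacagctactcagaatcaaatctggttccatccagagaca
Ifit3b: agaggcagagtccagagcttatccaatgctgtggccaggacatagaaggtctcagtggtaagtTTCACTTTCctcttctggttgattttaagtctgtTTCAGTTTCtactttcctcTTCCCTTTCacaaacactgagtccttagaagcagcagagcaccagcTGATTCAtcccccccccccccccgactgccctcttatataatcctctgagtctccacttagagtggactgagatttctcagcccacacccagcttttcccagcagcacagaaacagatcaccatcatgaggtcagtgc
The Hspa1a and Hspa1b windows were the same at 296 of 300 positions, including the heat shock element, whose first base lies 104 bases before the start in both. The 3 interferon motifs of Ifit3b began 187, 153 and 134 bases before the start.

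RefSeq promoters were found for 24 of the 30 genes, 35 promoters in all. The motifs were searched on both strands, and no 2 kinds of motif overlapped in a promoter of these genes. The heat shock core was in 11.4% of the 35 and in 7.89% of all 32544 promoters searched, and the interferon core in 2.86% against 8.53%. The 4 promoters with the heat shock core belonged to Hspa1a, Hspa1b, Pf4 and Ppfibp2, and those of Hspa1a and Hspa1b are near-identical. The antioxidant response element TGACNNNGC, the site bound by NRF2, was in 14.3% against 12.4%, in promoters of Cdkn1a, Ppfibp2, Rasgrf1, Serinc2 and Slc13a3. The E-box CACGTG was in 17.1% against 7.17%, AP-1 in 14.3% against 7.79%, and C/EBP (TTGCNNAA) in 11.4% against 10.8%. A gene can have several promoters, and the 2 Cgref1 windows overlap and hold the same E-box and AP-1 site. The 6 promoters with an E-box belonged to 5 genes, the 5 with AP-1 to 4 and the 4 with C/EBP to 3. GAS (TTCNNNGAA) was in 5.71% against 8.33% and the TATA box TATAAA in 8.57% against 13.6%. The kappaB letters GGGANTTTC, the CRE TGACGTCA and the SREBP letters TCACNCCAC were in none of the 35, and in 1.12%, 1.8% and 1.24% of all. These matches describe short windows only.

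Levels of the 30 genes spanned a wide range. With both agents 10 genes lay under 5 CPM, 11 between 5 and 50, and 9 at 50 or more. Compared per length, as reads per kilobase scaled to the library total (RPK below), the order with both agents was led by the platelet factor 4 gene Pf4 at 699.8, then Blvrb at 177, Ass1 at 146, Cdkn1a at 96.6 and Ifit3b at 52.6. The lowest were Hmcn2 at 0.176, Rasgrf1 at 0.2896 and Adamts6 at 0.299 RPK. Pf4 to Ifit3b did not overlap with their neighbours in this order by 1 SD, whereas Adamts6 (SD 0.0421) and Rasgrf1 (SD 0.147) did.

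The ratio of both agents to PgLPS ran from 1.41 to 5.52 with a median of 1.66, and that of PgLPS to control from 1.59 to 153.8 with a median of 3.37. Only 6 genes at least doubled between PgLPS and both, namely Tnfsf4, Treml4, Ednrb, Comp, Serinc2 and Pcx. All libraries with both agents lay above all PgLPS libraries for 25 of the 30, where 19.6% of all tested genes did so. All PgLPS libraries lay above all control libraries for 28, where 17.0% of all tested genes did so. The exceptions were Comp and Cgref1, with 20 and 33 reads over the control libraries. The conditions used these contrasts, so the counts describe the choice. The 5 genes whose libraries with both agents reached into the PgLPS range were Il1f9, Lancl3, Rasgrf1, Xcr1 and Trim6, all under 10 CPM.

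**Figure D1:**
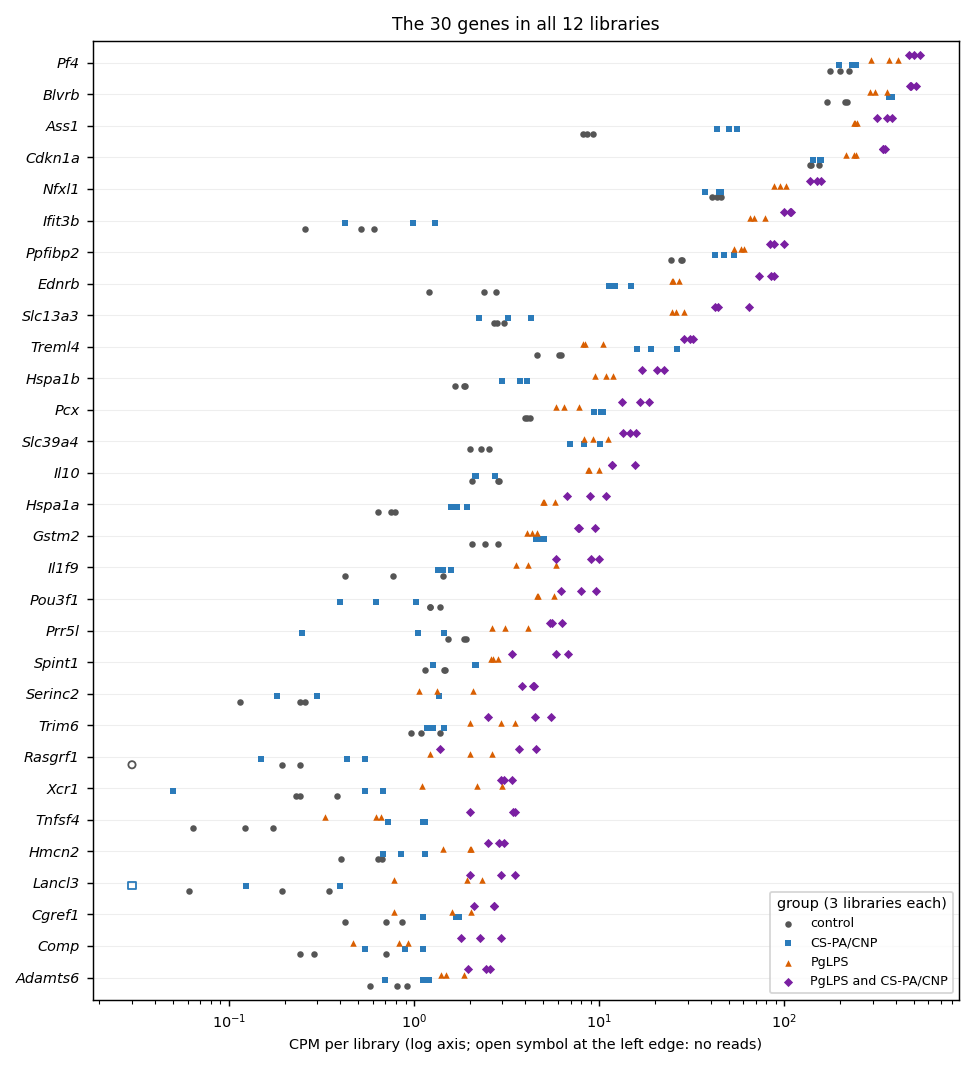
CPM of the 30 genes in each of the 12 libraries on a log axis, 1 symbol per library and 1 colour per group, ordered by the mean with both agents. For 25 genes the 3 libraries with both agents (diamonds) lie above the 3 with PgLPS (triangles), and open symbols mark a library with no reads.

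CS-PA/CNP alone against control is a contrast that the conditions did not use. It asks whether these genes also differ when the material is given without PgLPS. Of the 30 genes, 11 rose and none fell (edgeR BH-adjusted p below 0.05), while 6.67% of the 11656 tested genes rose and 5.61% fell. The risers were Tnfsf4, Treml4, Ednrb, Pcx, Gstm2, Hspa1a, Hspa1b, Ppfibp2, Blvrb, Slc39a4 and Ass1. Their log2 fold changes ran from 0.87 to 3.0, and the largest adjusted p among them was 0.00705. The median of all 30 was 0.91, beside 0.00 for all tested genes. Libraries with CS-PA/CNP lay wholly above control for 13 genes (12.2% of all tested genes) and wholly below for 2 (20.2%). The control libraries are shared with the conditions, which favour genes that are low there, so this count is not fully separate from the choice. At an unadjusted p below 0.05 edgeR had 15 higher and 2 lower, and DESeq2 called 13 higher and 0 lower. Against PgLPS, the CS-PA/CNP libraries lay wholly higher for 4 genes, Tnfsf4, Treml4, Pcx and Blvrb (59.4% of all tested genes), and wholly lower for 21 (16.7%). The libraries with both agents lay above all CS-PA/CNP libraries for all 30 (14.8%). The conditions favoured high levels with PgLPS and with both agents, so these last counts largely describe the choice. The shares are on library totals, which shifted the median log2 fold change of PgLPS against control by −0.41 compared with TMM scaling.

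Among signalling ligands, Tnfsf4 (ENSMUSG00000026700, chromosome 1) encodes OX40 ligand, which co-stimulates T cells. Tnfsf4 stood at 0.122, 0.173 and 0.0642 CPM in control, 1.12, 0.727 and 1.15 with CS-PA/CNP, 0.667, 0.332 and 0.623 with PgLPS and 3.51, 2.01 and 3.44 with both. Every library with CS-PA/CNP lay above every control library, and every library with both lay above all others. Its mean with both was 5.52 times that with PgLPS, the highest ratio of the 30. Against control, CS-PA/CNP alone raised it (log2 fold change 3.0 ± 0.56 (SE), edgeR BH-adjusted p = 0.00116), though control held only 6 reads over its 3 libraries. Leaving out any control or CS-PA/CNP library kept the call.

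Il10 (ENSMUSG00000016529, chromosome 1), the gene of the anti-inflammatory cytokine interleukin-10, had another pattern. Il10 stood at 2.86, 2.83 and 2.06 CPM in control, 2.17, 2.73 and 2.14 with CS-PA/CNP, 8.804, 9.97 and 8.73 with PgLPS and 15.7, 11.7 and 11.7 with both. The libraries with both lay above those with PgLPS, while control and CS-PA/CNP overlapped. CS-PA/CNP alone gave a log2 fold change −0.11 ± 0.22 (SE), edgeR BH-adjusted p = 0.828, with a 95% interval from −0.53 to 0.32. Its ratio of both to PgLPS, 1.42, was among the lowest that met the condition, and it dropped out when any of 3 single libraries was left out (PgLPS library 1 or 3, or library 1 of both), as Il10 and Pf4 did with TMM factors in place of library totals.

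Il1f9 and Pf4 complete the signalling ligands. Il1f9 (ENSMUSG00000044103, chromosome 2) is an interleukin-1 family member also called interleukin-36 gamma. Pf4 (ENSMUSG00000029373, chromosome 5) is a CXC chemokine known from platelets. Il1f9 stood at 0.426, 1.44 and 0.771 CPM in control, 1.43, 1.58 and 1.34 with CS-PA/CNP, 5.87, 3.55 and 4.103 with PgLPS and 9.94, 5.82 and 9.02 with both. One library with both lay within the PgLPS range. Pf4 stood at 176, 225 and 199 CPM in control, 197, 243 and 232 with CS-PA/CNP, 295, 411 and 366 with PgLPS and 474, 540 and 500.1 with both. Per length, Pf4 at 699.8 RPK with both agents stood above Il10 at 9.95, Il1f9 at 5.01 and Tnfsf4 at 1.62. Neither Il1f9 nor Pf4 was called with CS-PA/CNP alone (0.74 ± 0.39 and 0.20 ± 0.11, edgeR BH-adjusted p = 0.279 and 0.295). Pf4 also stands on the list of 10 erythroid and megakaryocyte markers. The other markers of that list summed to 6.02 to 7.96 CPM (control), 6.88 to 9.46 (CS-PA/CNP), 10.9 to 14.7 (PgLPS) and 10.4 to 12.6 (both agents), and of the 4 haemoglobin genes Hba-a2 and Hbb-bt had no reads while Hba-a1 and Hbb-bs reached at most 0.26 and 0.199 CPM in any library. These groups overlapped between PgLPS and both, while Pf4 did not.

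Among receptors, Ednrb (ENSMUSG00000022122, chromosome 14), the endothelin receptor type B, binds the vasoconstrictor peptides of the endothelin family. Ednrb stood at 2.37, 1.21 and 2.76 CPM in control, 11.3, 12.1 and 14.8 with CS-PA/CNP, 24.7, 26.98 and 24.98 with PgLPS and 84.8, 72.6 and 87.8 with both. The 4 groups did not overlap, and stood in the order control, CS-PA/CNP, PgLPS, both. With CS-PA/CNP alone it rose 6.03 times (log2 fold change 2.65 ± 0.19 (SE), edgeR BH-adjusted p = 1.5e-08), and with PgLPS present the ratio was 3.2.

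Treml4 (ENSMUSG00000051682, chromosome 17), a myeloid receptor of the TREM family, was higher with CS-PA/CNP alone than with PgLPS alone. Treml4 stood at 6.09, 6.23 and 4.62 CPM in control, 26.2, 15.9 and 19.1 with CS-PA/CNP, 8.404, 8.14 and 10.4 with PgLPS and 30.8, 28.6 and 32.3 with both. Its PgLPS libraries lay only 1.59 times above control on average, the smallest such ratio of the 30. It rose with CS-PA/CNP alone (log2 fold change 1.89 ± 0.17 (SE), edgeR BH-adjusted p = 2.8e-07).

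Xcr1 (ENSMUSG00000060509, chromosome 9), the receptor of the chemokine XCL1 and a marker of one dendritic cell type, was low. Xcr1 stood at 0.243, 0.231 and 0.385 CPM in control, 0.682, 0.545 and 0.0498 with CS-PA/CNP, 3.001, 1.11 and 2.18 with PgLPS and 3.39, 2.93 and 3.07 with both. PgLPS library 1 reached the level of the libraries with both, and the gene was not called with CS-PA/CNP alone (0.54 ± 0.69, edgeR BH-adjusted p = 0.707). The other 8 dendritic cell markers summed to 3.92 to 5.97 CPM (control), 2.91 to 5.03 (CS-PA/CNP), 11.5 to 13.7 (PgLPS) and 6.5 to 6.85 (both agents). The sum was led by Fscn1 (means of 7.01 CPM with PgLPS and 2.70 with both) and Ccr9 (2.33 and 0.867), whereas the means of Clec9a (0.176 and 0.344), Batf3, Flt3 and Siglech were higher with both. Their part in the Xcr1 level was not tested.

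**Figure D2:**
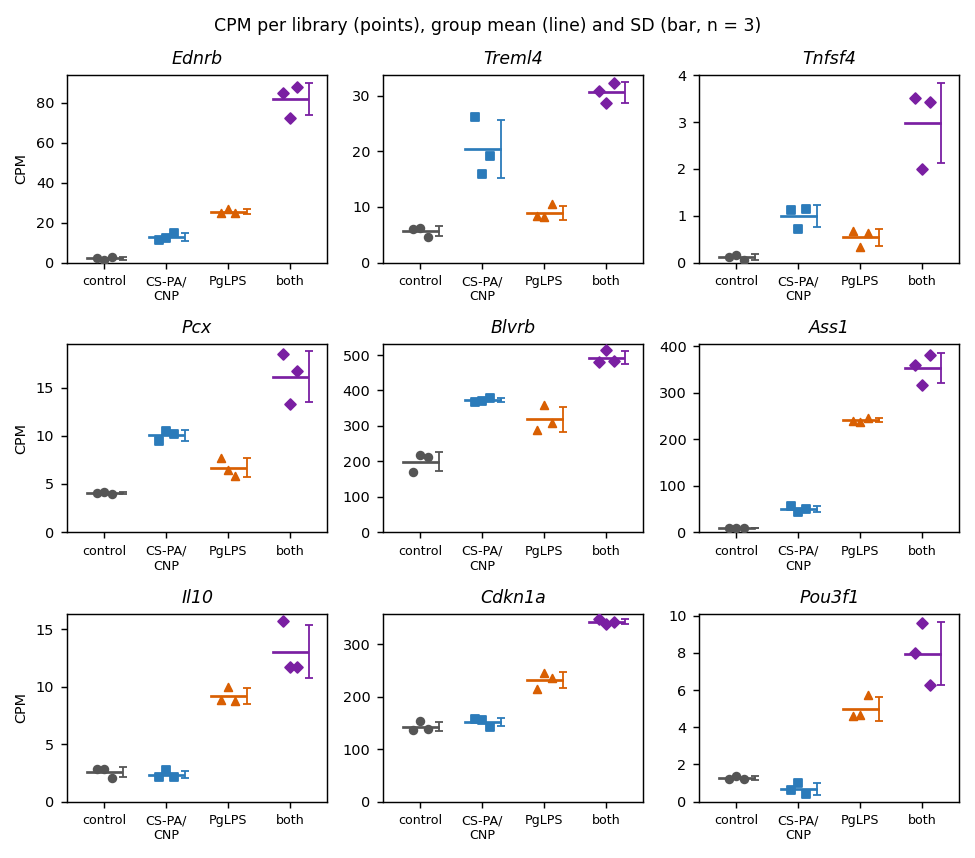
CPM of 9 of the genes in each library (points), with the mean (line) and SD (bar, n = 3) of each group on axes from 0. Ednrb, Treml4, Tnfsf4, Pcx, Blvrb and Ass1 were higher with CS-PA/CNP alone than in control, Il10 and Cdkn1a overlapped control, and Pou3f1 lay below it.

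The metabolic enzymes and transporters held 5 of the 11 genes that rose with CS-PA/CNP alone. Pcx (ENSMUSG00000024892, chromosome 19) encodes pyruvate carboxylase, which feeds pyruvate into the tricarboxylic acid cycle. Pcx stood at 4.08, 4.21 and 3.98 CPM in control, 9.42, 10.5 and 10.2 with CS-PA/CNP, 7.74, 6.48 and 5.87 with PgLPS and 18.5, 13.3 and 16.7 with both. The libraries with CS-PA/CNP alone lay above those with PgLPS alone, and those with both lay above all others. The rise without PgLPS was 2.46-fold (log2 fold change 1.34 ± 0.16 (SE), edgeR BH-adjusted p = 7.4e-06), close in size to the ratio of 2.41 with it.

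Ass1 (ENSMUSG00000076441, chromosome 2) encodes argininosuccinate synthase, which helps rebuild arginine from citrulline. Ass1 stood at 9.25, 8.19 and 8.54 CPM in control, 55.8, 43.3 and 50.1 with CS-PA/CNP, 240.2, 238 and 246 with PgLPS and 359, 317 and 382 with both. Its groups were well apart, with PgLPS 27.9 times control. With CS-PA/CNP alone it rose 5.74 times (log2 fold change 2.56 ± 0.10 (SE), edgeR BH-adjusted p = 6.2e-12), against a ratio of 1.46 in the presence of PgLPS. About 46.9% of 75-base windows of its longest transcript also occur in the transcript of Gm5424. No gene of that name was among those counted, and how shared reads were treated is not known.

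Blvrb (ENSMUSG00000040466, chromosome 7) encodes a biliverdin reductase of haem breakdown, and Gstm2 (ENSMUSG00000040562, chromosome 3) a glutathione transferase that conjugates reactive compounds. Blvrb stood at 169, 217 and 211 CPM in control, 369, 369.6 and 380.1 with CS-PA/CNP, 288, 358 and 308 with PgLPS and 479, 514 and 484 with both. Gstm2 stood at 2.07, 2.42 and 2.83 CPM in control, 4.84, 5.03 and 4.58 with CS-PA/CNP, 4.34, 4.598 and 4.05 with PgLPS and 9.53, 7.72 and 7.79 with both. On library totals, for both genes the libraries with both agents lay above all others, and CS-PA/CNP alone reached at least the mean level of PgLPS alone. In the TMM-scaled fit the order of the 2 single agents was reversed. There PgLPS against control had log2 fold changes of 1.09 (Blvrb) and 1.24 (Gstm2), above those of CS-PA/CNP that follow. Both Blvrb (log2 fold change 0.94 ± 0.09 (SE), edgeR BH-adjusted p = 5.5e-07) and Gstm2 (log2 fold change 1.02 ± 0.19 (SE), edgeR BH-adjusted p = 8.9e-04) rose with CS-PA/CNP alone. Without control library 1 or PgLPS library 2, the ratio of PgLPS to control of Blvrb was below the 1.5 required.

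Slc39a4 (ENSMUSG00000063354, chromosome 15), a zinc importer, and Slc13a3 (ENSMUSG00000018459, chromosome 2), a carrier of dicarboxylates such as succinate, are the transporters of the set with the most reads. Slc39a4 stood at 2.56, 2.02 and 2.31 CPM in control, 6.94, 8.303 and 10.1 with CS-PA/CNP, 11.2, 8.25 and 9.298 with PgLPS and 15.7, 13.5 and 14.7 with both. Slc13a3 stood at 2.799, 3.06 and 2.697 CPM in control, 2.23, 4.303 and 3.24 with CS-PA/CNP, 24.7, 28.7 and 25.9 with PgLPS and 44.01, 64.2 and 42.4 with both. In both genes the libraries with both lay above those with PgLPS. Slc39a4 rose with CS-PA/CNP alone (log2 fold change 1.92 ± 0.19 (SE), edgeR BH-adjusted p = 5.9e-07), whereas Slc13a3 overlapped control (log2 fold change 0.23 ± 0.26 (SE), edgeR BH-adjusted p = 0.653, 95% interval −0.27 to 0.74). Serinc2 (ENSMUSG00000023232, chromosome 4), a membrane protein named for carrying serine into lipids, went from 1.49 ± 0.524 CPM with PgLPS to 4.22 ± 0.358 with both (SD, n = 3). It lay at 1.36, 0.182 and 0.299 CPM with CS-PA/CNP alone, where library 1 stood apart, and was not called (log2 fold change 1.56 ± 0.71 (SE), edgeR BH-adjusted p = 0.188).

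The stress and cell cycle genes included both inducible heat shock protein 70 genes, whose near-identical promoters are printed above. Hspa1b stood at 1.89, 1.67 and 1.86 CPM in control, 3.72, 2.97 and 4.08 with CS-PA/CNP, 10.9, 11.9 and 9.45 with PgLPS and 20.5, 17.1 and 22.5 with both. Hspa1a stood at 0.791, 0.7497 and 0.642 CPM in control, 1.92, 1.697 and 1.59 with CS-PA/CNP, 5.002, 5.76 and 5.04 with PgLPS and 6.66, 8.91 and 10.9 with both. In both genes every library with both lay above every PgLPS library, and every PgLPS library above every other. CS-PA/CNP alone raised Hspa1b (ENSMUSG00000090877, chromosome 17; log2 fold change 1.04 ± 0.21 (SE), edgeR BH-adjusted p = 0.00186) and Hspa1a (ENSMUSG00000091971, chromosome 17; log2 fold change 1.28 ± 0.30 (SE), edgeR BH-adjusted p = 0.00705). Of their 75-base windows, 55.8% and 54.2% also occur in each other or in Hspa1l. How shared reads were treated is not known, so these genes cannot be taken as 2 independent measurements. Hspa1l itself had 16 to 23 reads per group.

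Cdkn1a (ENSMUSG00000023067, chromosome 17) encodes p21, the inhibitor of cyclin-dependent kinases and a p53 target. Cdkn1a stood at 137, 154 and 139 CPM in control, 157, 156 and 143 with CS-PA/CNP, 214, 245 and 237 with PgLPS and 348, 339 and 342 with both. The libraries with both agents lay within a few percent of each other and above all others, while CS-PA/CNP alone overlapped control (log2 fold change 0.13 ± 0.07 (SE), edgeR BH-adjusted p = 0.278). Nfxl1 (ENSMUSG00000072889, chromosome 5), an X-box binding protein homologue, also overlapped between control and CS-PA/CNP. Nfxl1 stood at 45.2, 40.9 and 43.3 CPM in control, 45.8, 44.5 and 37.4 with CS-PA/CNP, 102, 87.97 and 94.8 with PgLPS and 157, 137 and 149 with both. CS-PA/CNP alone gave a log2 fold change 0.02 ± 0.08 (SE), edgeR BH-adjusted p = 0.926, with a 95% interval of −0.14 to 0.18.

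Ifit3b (ENSMUSG00000062488, chromosome 19), an interferon-induced antiviral protein gene, had the largest PgLPS ratio of the 30, 154 times control. Ifit3b stood at 0.609, 0.519 and 0.257 CPM in control, 0.992, 0.424 and 1.29 with CS-PA/CNP, 68.4, 79.05 and 65.5 with PgLPS and 109, 107 and 99.6 with both. Control and CS-PA/CNP were both low and overlapped (log2 fold change 1.02 ± 0.40 (SE), edgeR BH-adjusted p = 0.121), and DESeq2 called it (adjusted p = 0.0472). Of its 75-base windows, 35.7% also occur in Ifit3, which went from 731.8 CPM with PgLPS to 898.6 with both, a ratio of 1.23. Trim6 (ENSMUSG00000072244, chromosome 7), a ubiquitin ligase of the tripartite motif family, lay at 2.001, 2.94 and 3.53 CPM with PgLPS and 5.49, 2.52 and 4.48 with both, so these groups overlapped. With CS-PA/CNP alone Trim6 was not called (log2 fold change 0.22 ± 0.36 (SE), edgeR BH-adjusted p = 0.782).

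Pou3f1 (ENSMUSG00000090125, chromosome 4), a POU domain transcription factor, lay on opposite sides of the comparison group without and with PgLPS. Pou3f1 stood at 1.22, 1.38 and 1.22 CPM in control, 0.6199, 1.03 and 0.398 with CS-PA/CNP, 4.602, 4.65 and 5.71 with PgLPS and 8.01, 9.63 and 6.26 with both. Each library with CS-PA/CNP lay below each control library, and each with both lay above each with PgLPS. The lower level without PgLPS was not called (log2 fold change −0.89 ± 0.35 (SE), edgeR BH-adjusted p = 0.125), and without CS-PA/CNP library 2 it was (−1.31, edgeR BH-adjusted p = 0.0431).

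Of the matrix and protease genes, Comp (ENSMUSG00000031849, chromosome 8), the cartilage oligomeric matrix protein, had the largest ratio of both to PgLPS. Comp stood at 0.243, 0.288 and 0.706 CPM in control, 1.12, 0.545 and 0.896 with CS-PA/CNP, 0.934, 0.831 and 0.467 with PgLPS and 2.28, 1.802 and 2.94 with both. The libraries with both lay above all others, and the PgLPS libraries overlapped control. Comp had 38 reads over the PgLPS libraries and was not called with CS-PA/CNP alone (log2 fold change 1.09 ± 0.50 (SE), edgeR BH-adjusted p = 0.1895). The 10 stromal markers, among them the collagens, summed to 7.22 to 54.7 CPM with PgLPS and 4.17 to 6.78 with both. The highest sum was that of PgLPS library 1. Col1a1 in PgLPS library 3 (0.935 CPM) lay within the range with both (0.552 to 1.29). Pdgfrb of the same list did not overlap, at 4.27, 2.27 and 2.96 CPM with PgLPS and 0.701, 0.669 and 0.736 with both. The part of these markers in the Comp level was not tested. Spint1 (ENSMUSG00000027315, chromosome 2), a Kunitz-type inhibitor of serine proteases, went from 2.601, 2.66 and 2.86 CPM with PgLPS to 5.84, 3.398 and 6.75 with both. Adamts6 (ENSMUSG00000046169, chromosome 13), a secreted metalloprotease, and Hmcn2 (ENSMUSG00000055632, chromosome 2), an extracellular hemicentin, went from 1.59 ± 0.246 to 2.33 ± 0.328 and from 1.82 ± 0.331 to 2.82 ± 0.282 CPM between these groups (SD, n = 3). None of these 3 was called with CS-PA/CNP alone, with log2 fold changes of 0.50 ± 0.32, 0.41 ± 0.36 and 0.68 ± 0.38.

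Among the signalling adaptors, Ppfibp2 (ENSMUSG00000036528, chromosome 7), or liprin beta 2, had the most reads. Ppfibp2 stood at 27.7, 28.1 and 24.5 CPM in control, 53.1, 47.3 and 42.3 with CS-PA/CNP, 53.4, 58.2 and 60.2 with PgLPS and 88.1, 83.5 and 99.3 with both. The 4 groups did not overlap, though the highest CS-PA/CNP and the lowest PgLPS library were almost level. It rose with CS-PA/CNP alone (log2 fold change 0.87 ± 0.10 (SE), edgeR BH-adjusted p = 3.1e-06). Prr5l (ENSMUSG00000032841, chromosome 2), a protein that binds the mTOR complex with rictor, resembled Pou3f1. Prr5l stood at 1.52, 1.903 and 1.86 CPM in control, 0.248, 1.45 and 1.05 with CS-PA/CNP, 4.14, 3.102 and 2.65 with PgLPS and 5.55, 6.28 and 5.398 with both. Its CS-PA/CNP libraries lay below control and its libraries with both above PgLPS, and the lower level without PgLPS was not called (log2 fold change −0.88 ± 0.38 (SE), edgeR BH-adjusted p = 0.1596).

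The remaining 3 genes had few reads. Cgref1 (ENSMUSG00000029161, chromosome 5), an EF hand protein linked to cell growth, had 0.426, 0.865 and 0.706 CPM in control and 1.12, 1.76 and 1.69 with CS-PA/CNP, which did not overlap. The difference missed the threshold (log2 fold change 1.23 ± 0.40 (SE), edgeR BH-adjusted p = 0.0557). It was called by DESeq2 (adjusted p = 0.0411), by edgeR with no filter (BH-adjusted p = 0.0397) and by edgeR with only these 2 groups (BH-adjusted p = 0.0335). It was not called with library totals (edgeR BH-adjusted p = 0.0668). Leaving out any single control or CS-PA/CNP library also gave no call (edgeR BH-adjusted p from 0.0553 to 0.230). Rasgrf1 (ENSMUSG00000032356, chromosome 9), an exchange factor that activates Ras, and Lancl3 (ENSMUSG00000047344, chromosome X), a LanC-like protein, had 7 and 10 reads over the control libraries. With both agents Rasgrf1 had 3.68, 1.39 and 4.54 CPM and Lancl3 3.51, 2.01 and 2.94, and in both genes these overlapped the PgLPS range. Library 2 was the lowest of its group for both genes with PgLPS and with both. Neither was called with CS-PA/CNP alone, at 1.35 ± 0.90 and −0.07 ± 0.92.

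The size of the CS-PA/CNP ratio without and with PgLPS, set side by side, differed among the genes. Treml4, Pcx, Gstm2 and Hspa1b had similar values, with 3.62 and 3.398, 2.46 and 2.41, 1.97 and 1.93, and 1.99 and 1.86. In Ass1, Slc39a4 and Ednrb the ratio was larger without PgLPS, at 5.74 against 1.46, 3.67 against 1.53 and 6.03 against 3.2. Slc13a3, Nfxl1, Il10 and Cdkn1a lay near 1 without PgLPS, at 1.14, 0.987, 0.909 and 1.06, and at 1.898, 1.56, 1.42 and 1.48 with it. The level with both agents was above the product of the 2 single ratios in 14 genes and below it in 16. It was above the sum of the 2 single increases in 29, the exception being Slc39a4 at 0.93 of that sum. The conditions required a level with both agents of at least 1.4 times PgLPS, which favours levels above the sum. These counts therefore describe the choice. The difference between the 2 ratios holds the contrast that chose the genes and was not tested.

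**Figure D3:**
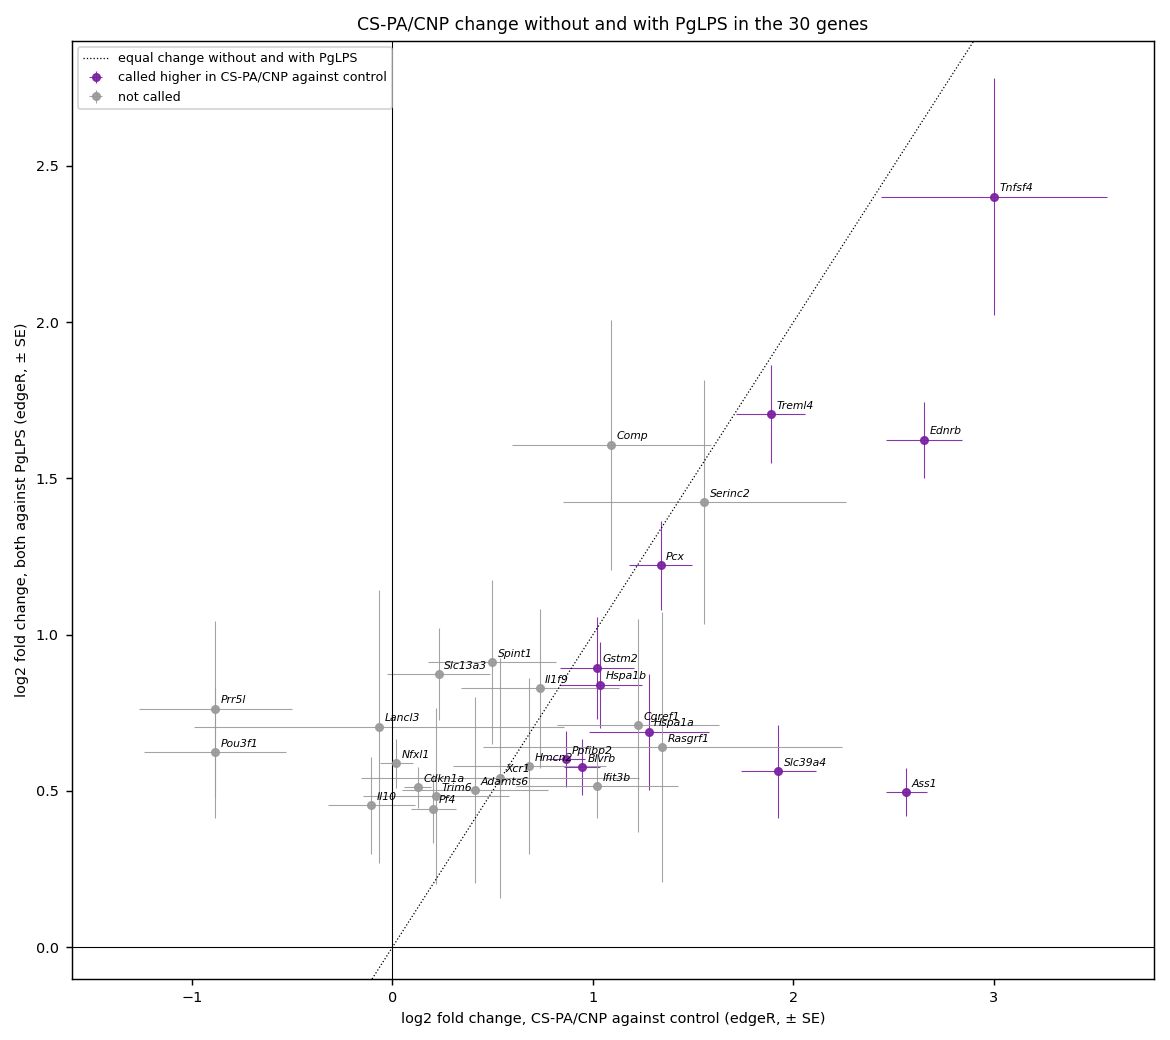
Log2 fold change of CS-PA/CNP against control (x axis) and of both agents against PgLPS (y axis) for the 30 genes, as fitted by edgeR with SE bars, with the 11 genes called on the x axis in purple and the line of equal change dotted. All 30 lie above 0 on the y axis, which the choice fixed, while on the x axis they run from −0.89 (Pou3f1) to 3.0 (Tnfsf4).

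Gene lists of the programmes the genes belong to were then counted over all tested list genes (edgeR, BH over 11656 genes, of which 9.42% rose and 10% fell with both agents against PgLPS). List counts include the genes of the set that stand on a list, whose direction with both agents the choice fixed. Of 16 heat shock chaperone genes, 8 rose and none fell with both against PgLPS, with a list median of 0.21 beside −0.01 for all genes. Dnajb4, a co-chaperone, changed by 0.68 ± 0.10, edgeR BH-adjusted p = 4.7e-05, and the mitochondrial chaperone Hspd1 by 0.27 ± 0.06, edgeR BH-adjusted p = 0.00235. With CS-PA/CNP alone 8 rose and 1 fell, the one being Dnajb4 (−0.67 ± 0.09, edgeR BH-adjusted p = 3.1e-05). Hspa1a and Hspa1b were the only ones of the 16 that met the conditions.

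Of 25 further NRF2 targets, 16 rose and 3 fell with both against PgLPS (median 0.44), and 19 rose and none fell with CS-PA/CNP alone (median 0.59). Gsta3, a glutathione transferase, rose with both (1.61 ± 0.08, edgeR BH-adjusted p = 5.9e-11), yet its mean was 22.3 CPM with PgLPS against 30.3 in control, so it missed the condition on PgLPS. The pentose phosphate enzyme Taldo1 rose by 0.99 ± 0.06, edgeR BH-adjusted p = 9.3e-10, also from a PgLPS level below control. Blvrb and Gstm2 were the 2 of this list that met all conditions. Among the 13 genes set aside, Prdx1, Hmox1 and Acss2 had ratios of both to PgLPS of 1.99, 1.52 and 4.22. Slc48a1 and Slc7a11 missed that condition at 1.37 and 0.86, and the other 8 were below 1.5 times control with PgLPS.

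In 3 lists of immune genes that include a gene of the set, more genes fell than rose with both against PgLPS. Of 22 T cell co-stimulatory and checkpoint genes, 5 rose and 12 fell (median −0.55). Cd38, an NAD-consuming ectoenzyme, fell (−1.49 ± 0.09, edgeR BH-adjusted p = 1.5e-09), and the checkpoint gene Vsir rose (0.53 ± 0.06, edgeR BH-adjusted p = 1.7e-06). Tnfsf4 was 1 of 4 in this list that rose with CS-PA/CNP alone, and none fell. Of 18 genes of the interleukin-10 and STAT3 pathway, 2 rose and 10 fell (median −0.31), with Il1rn at −1.63 ± 0.06, edgeR BH-adjusted p = 2.1e-12 and Socs3 at −1.13 ± 0.08, edgeR BH-adjusted p = 3.2e-09. With scaling by library totals 3 rose and 8 fell. Of 33 interferon-stimulated genes, 1 rose and 10 fell (median −0.16), with Ifi205 at −0.82 ± 0.06, edgeR BH-adjusted p = 2.7e-08. With library totals 3 rose and 9 fell. Without PgLPS, CS-PA/CNP raised 11 of the 33 and lowered 1.

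Of 20 genes of arginine, itaconate and nucleotide metabolism, 2 rose and 8 fell with both against PgLPS (median −0.21). The arginine carrier Slc7a2 fell (−2.32 ± 0.16, edgeR BH-adjusted p = 5.7e-09), as did the uridine phosphorylase gene Upp1 (−1.80 ± 0.11, edgeR BH-adjusted p = 7.5e-10). With CS-PA/CNP alone 8 of the 20 rose and none fell, among them Ass1 and the itaconate gene Acod1 (3.35 ± 0.15, edgeR BH-adjusted p = 2.9e-11). Of 22 p53 target and cell cycle genes 8 rose and 4 fell with both (median 0.26), with Ccnd1, the gene of cyclin D1, at 1.31 ± 0.08, edgeR BH-adjusted p = 4.5e-10 and the kinase gene Plk2 at 0.68 ± 0.06, edgeR BH-adjusted p = 4.3e-08. With library totals 10 rose and 3 fell. Against control, CS-PA/CNP raised 1 and lowered 12. Cdkn1a was the only one of these 22 to meet the conditions. Of 19 iron, haem and metallothionein genes, which include Blvrb, 9 rose and 3 fell with both (median 0.15). The haptoglobin gene Hp was at −1.61 ± 0.08, edgeR BH-adjusted p = 8.6e-11, and the iron exporter gene Slc40a1 at 1.46 ± 0.09, edgeR BH-adjusted p = 1.3e-09. Without PgLPS, 9 of the 19 rose and none fell.

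**Figure D4:**
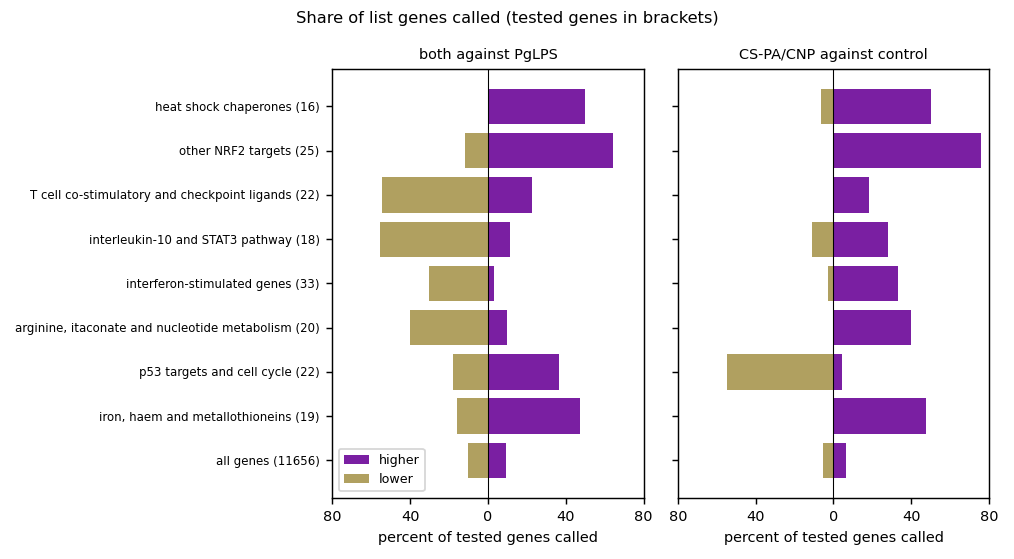
Percent of tested genes called higher (right of 0) or lower (left of 0) by edgeR in 8 fixed gene lists and in all 11656 tested genes, for both agents against PgLPS (left panel) and CS-PA/CNP against control (right panel). With both agents against PgLPS more genes rose than fell in the heat shock (8 and 0 of 16) and NRF2 (16 and 3 of 25) lists, while more fell than rose in the interleukin-10 (2 and 10 of 18) and interferon (1 and 10 of 33) lists.

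By the annotation in the deposited table, 8 of the 30 genes (26.7%) were placed in the extracellular region or space, against 6.26% of all tested genes. These were Tnfsf4, Comp, Spint1, Il1f9, Hmcn2, Adamts6, Il10 and Pf4. Cytokine activity was given for 4 (13.3% against 0.721%) and the plasma membrane for 11 (36.7% against 19.1%), while the nucleus was given for 7 (23.3% against 38.5%). Chromosome 2 held 6 of the 30, against 8.01% of tested genes, and chromosome 17 held 4, among them Hspa1a and Hspa1b. The median gene length was 3037 bases, against 4505 for all tested genes.

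Near the limits of the conditions the values were close together. For the ratio of both to PgLPS, Pf4 (1.41), Il10 (1.42) and Ass1 (1.46) lay just inside, and Fgl2 (1.399), Ptger2 (1.397) and Igf2bp2 (1.39) just outside. For PgLPS over control, Treml4 (1.59), Blvrb (1.60) and Cdkn1a (1.62) lay inside, and Fam72a (1.46), Slc30a1 (1.38) and Serpinb1b (1.35) outside. For the level with both agents, Adamts6 (2.33), Comp (2.34) and Cgref1 (2.50 CPM) lay inside, and Cxcl5 (1.91), Gdpd2 (1.87) and Ugt1a6b (1.80 CPM) outside.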

How the data were processed

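The authors deposited whole-number read counts for each gene, 1 column per library, in 1 table with gene lengths. Of the other columns with a value per library, 12 were not used. HTSeq 0.9.1, DESeq 1.30.0, HISAT2 2.0.5 and cutadapt 1.15 were used per the submitters' processing notes, which do not say for what. Build, annotation and strand setting are not given, so reads of overlapping genes cannot be separated, and for genes only chromosomes are printed. Columns were assigned to groups by their letters (C, M, L and LM for control, CS-PA/CNP, PgLPS and both). Their numbers match no label and serve here as library numbers.

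CPM used library totals, and reads per kilobase used the table's gene length. Counts of all 12 libraries were fitted together with edgeR 4.0.16 in R 4.3.3 (quasi-likelihood test, TMM, filterByExpr by group, 1 mean per group). The filter kept 11656 genes, the 30 described here among them. P-values are 2-sided and adjusted by Benjamini and Hochberg (BH) over those genes, with 0.05 as threshold. SE is the fold change over the square root of F, and 95% intervals are 1.96 SE either side. Alternatives were DESeq2 1.42.0, scaling on totals, no filter, a fit of 2 groups, a block on column numbers, other thresholds and leaving out libraries. Compared with TMM, totals shifted the median log2 fold change over all genes by −0.41 (PgLPS against control), 0.05 (both against PgLPS) and −0.04 (CS-PA/CNP against control). The titles of the numbered libraries in each group call them biological replicates (biol rep). Whether the 3 libraries of a group are separate animals or cultures is not labelled. The spread behind the p-values may thus not include differences between animals.

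The rule for named genes took members with the largest ratios of both to PgLPS, the highest levels, called changes with CS-PA/CNP alone or a place on a gene or marker list. It also took the 3 genes nearest each threshold on either side, and up to 2 other genes per list with the smallest p. The remaining members were added so that all 30 are accounted for, and Ifit3, Hspa1l and Gm5424 were named for shared sequence. Members, lists, motifs and tests were chosen with earlier results of these data known.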

Additional observations from a re-analysis of the deposited data

Results flagged for a closer look

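Pou3f1 and Prr5l lay lower with CS-PA/CNP than without it in the absence of PgLPS, and higher in its presence. In both genes all 3 CS-PA/CNP libraries lay below all 3 control libraries, and all 3 libraries with both agents lay above all 3 with PgLPS. The ratio of both to PgLPS divided by the ratio of CS-PA/CNP to control was 2.98 for Pou3f1 and 3.35 for Prr5l. The difference was not tested, because the ratio of both to PgLPS chose the genes. Pou3f1 had 63 reads over the control libraries and 35 with CS-PA/CNP, and Prr5l 87 and 49.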

How the results depend on the processing

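The number of genes that met the conditions was 30 on library totals and 47 with TMM factors or with DESeq2 size factors in place of library totals. That scaling kept 28 of the 30, losing Il10 and Pf4. Leaving out each control, PgLPS and combined library in turn gave 28 to 35 genes, and 19 of the 30 met the conditions in all 9 of those runs. With a ratio of 1.3 or 1.5 of both to PgLPS there were 44 and 22, and with a minimum of 1 or 5 CPM there were 39 and 20. 

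The count of members higher with CS-PA/CNP than in control was 11, and 11 to 13 over the alternatives, with 11 to 12 when single libraries were left out. The fit of control and CS-PA/CNP libraries alone tested 26 of the 30. The count of members lower was 0, and 0 to 1 when single libraries were left out, the 1 being Pou3f1 without CS-PA/CNP library 2. Over single genes, 309 of 326 alternative fits kept direction and side of the threshold, 8 passed the threshold anew and 9 changed sign. The sign changed in 4 genes that no fit called. When single libraries were left out, Slc13a3 ran from −0.0065 to 0.42, Xcr1 from −0.0025 to 1.12, Lancl3 from −1.57 to 0.59 and Nfxl1 from −0.044 to 0.097 on the log2 scale, and with library totals Nfxl1 was at −0.021. The cause was not tested.

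The numbers in the column names match no replicate number in the sample titles. For lack of a label, the main fit did not take the numbers to pair the samples. Across genes, the deviations of same-numbered control and CS-PA/CNP libraries from their group means correlated at 0.0622, 0.051 and 0.0294. Of these 6 libraries, 5 correlated best with their own number. Same-numbered PgLPS and combined libraries correlated at 0.118, 0.224 and 0.0744, and same-numbered libraries of the other group pairs at −0.068 to 0.144. A shared animal, batch or day behind a number can thus not be told from the labels. A fit with the column number as a replicate block, added after the data were seen, called 13 members higher and 0 lower, and 1099 and 934 of all genes against 777 and 654. It called Cgref1 and Pf4 anew (edgeR BH-adjusted p = 0.0439 and 0.00845). Depth limits the genes under 5 CPM: Tnfsf4, Rasgrf1, Serinc2 and Lancl3 had 6 to 10 reads over the 3 control libraries.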

Other observations

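With TMM factors in place of library totals, 19 further genes met the conditions, since that scaling raises the PgLPS ratios of all genes. These genes were looked at after their values were seen. On library totals their PgLPS means lay between 1.17 and 1.46 times control, other than Cxcl5, Gdpd2 and Ugt1a6b, which had missed the 2 CPM minimum. Ptgr1, a reductase of prostaglandins and reactive aldehydes, had 47.6 CPM in control, 157 with CS-PA/CNP, 58.1 with PgLPS and 166 with both. Cyb5a, the cytochrome b5 gene, had 97.7, 220.2, 117 and 237 CPM in the same order. Me1, the malic enzyme that supplies NADPH, had 17.5, 36.6, 21.3 and 38.9 CPM. In all 3 the level with both agents was close to that with CS-PA/CNP alone.

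Of the 19, CS-PA/CNP alone raised 10 and lowered 1 (edgeR, BH over 11656 genes), where 6.67% of all tested genes were higher and 5.61% lower. The same control libraries served to pick the 19, so nothing particular to them is read from these counts. The one lowered was Ccr3, a receptor of eotaxin chemokines, at 34.4 CPM in control and 19.9 with CS-PA/CNP (log2 fold change −0.75 ± 0.12, edgeR BH-adjusted p = 2.3e-04). With PgLPS it stood at 41.6 and with both at 64.6 CPM, so its level was lower with CS-PA/CNP than without it in the absence of PgLPS and higher in its presence. That difference was not tested.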
